A study of Saccharomyces cerevisiae with 78 samples.

Results

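RNase P and RNase MRP are essential RNA-protein enzymes, each built on 1 catalytic RNA. RNase P removes the 5′ leader of precursor tRNAs, and RNase MRP cuts precursor ribosomal RNA and some messenger RNAs. In *Saccharomyces cerevisiae* the enzymes share most of their protein subunits, while *RPR2* encodes a protein of RNase P and *SNM1* a protein of RNase MRP. Some of the shared proteins work in pairs: Pop6 and Pop7 bind the RNA as a heterodimer, and Pop5 pairs with Rpp1. Pop6, Pop7 and Pop1 are also found in yeast telomerase.

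The subunit genes were chosen by symbol, as *POP4* and *POP6* and any of 8 further subunit genes that the array annotation lists. All 8 were found, which gave 10 genes of 982 and 12 features of the 1457 that carry a gene symbol. These are *POP1* (YNL221C), *POP3* (YNL282W), *POP4* (YBR257W), *POP5* (YAL033W), *POP6* (YGR030C), *POP7* (YBR167C), *POP8* (YBL018C), *RPP1* (YHR062C), *RPR2* (YIR015W) and *SNM1* (YDR478W). *POP8* has an intron and 3 features, and each of the other genes has 1. Which *POP8* feature is the exon, junction or intron probe was read from the printing layout. In 3 of 3 strains where it could be checked, the feature at the intron position was the lowest of the gene with the deleted intron. The exon and junction positions were not checked in this way, so all these kinds are inferred, those of exon and junction less firmly.

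Each of 17 haploid strains lacked the intron of 1 ribosomal protein gene and was compared with wild type derived from the same parent. A total of 10 strains carry a deletion in a gene of the large subunit, which are *rpl2aΔi*, *rpl2bΔi*, *rpl16aΔi*, *rpl23aΔi*, *rpl24aΔi*, *rpl29Δi*, *rpl31aΔi*, *rpl34aΔi*, *rpl35aΔi* and *rpl40bΔi*, and 7 in a gene of the small subunit, which are *rps8aΔi*, *rps9aΔi*, *rps9bΔi*, *rps14aΔi*, *rps14bΔi*, *rps21bΔi* and *rps23aΔi* (Di in the labels). Cultures were grown in rich medium (YEPD), and no subunit gene was itself altered. The 78 two-colour splicing arrays form 39 replicates, 1 to 3 per strain, each with 1 array having the mutant in Cy3 and 1 having it in Cy5. Each value is log2(mutant / wild type), the mean of up to 6 spots on each of both arrays. A positive value thus means more RNA in the mutant. The lowest feature of the gene with the deleted intron was below 0 in both dyes in 17 of 17 strains. That feature was taken as the intron because it was lowest on these same arrays, so this is only a weak check of the sign.

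Arrays differed in ways that touch these genes. Between 83 and 3552 of 9216 spots had no value on an array, and the arrays of *rps9aΔi* lacked 2588 to 3552. Slides came in 4 batches by array name, here A to D, and batch D holds only 1 replicate each of *rps14aΔi* and *rps14bΔi*. The a-factor gene *MFA2*, a marker of a-cells, lay between -4.65 and -3.04 in 23 replicates and between -0.19 and 0.73 in the other 16. Replicates of both *MFA2* kinds occur in 4 strains, and all 3 replicates of *rpl40bΔi* have the low values. The other 16 were not alike in *MF(ALPHA)1*, the alpha-factor gene. It was at -3.67 in *rpl29Δi*, -4.48 in *rpl31aΔi* and -2.27 in replicate 1 of *rpl2aΔi*, but at 0.05 in its replicate 2. The rest of the 16 with a value lay between -0.35 and 0.11.

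Against wild type, most subunit messages did not move beyond the replicate spread. With limma's test across all features of a strain, 3 of 201 values of the 12 features passed an adjusted p of 0.05, 1 higher and 2 lower. This is 1.49% of the values, against 0.986% over all features and strains. All 3 were in *rpl40bΔi*, where *POP6* and *SNM1* fell and *POP5* rose, and in the other 16 strains 0 of 189 values passed. Over all features, 240 of 24341 values passed and 125 of these were in *rpl40bΔi*, so calls were rare in the other strains for all features. The RNA came from whole cultures, so fewer cells with a message and less of it per cell cannot be told apart. At an unadjusted p under 0.05, the subunit features had 20 values, 10 higher and 10 lower, or 9.95%, against 9.445% over all features. The median size of a strain mean was 0.07 for the subunits and 0.08 for all features.

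**Figure D1:**
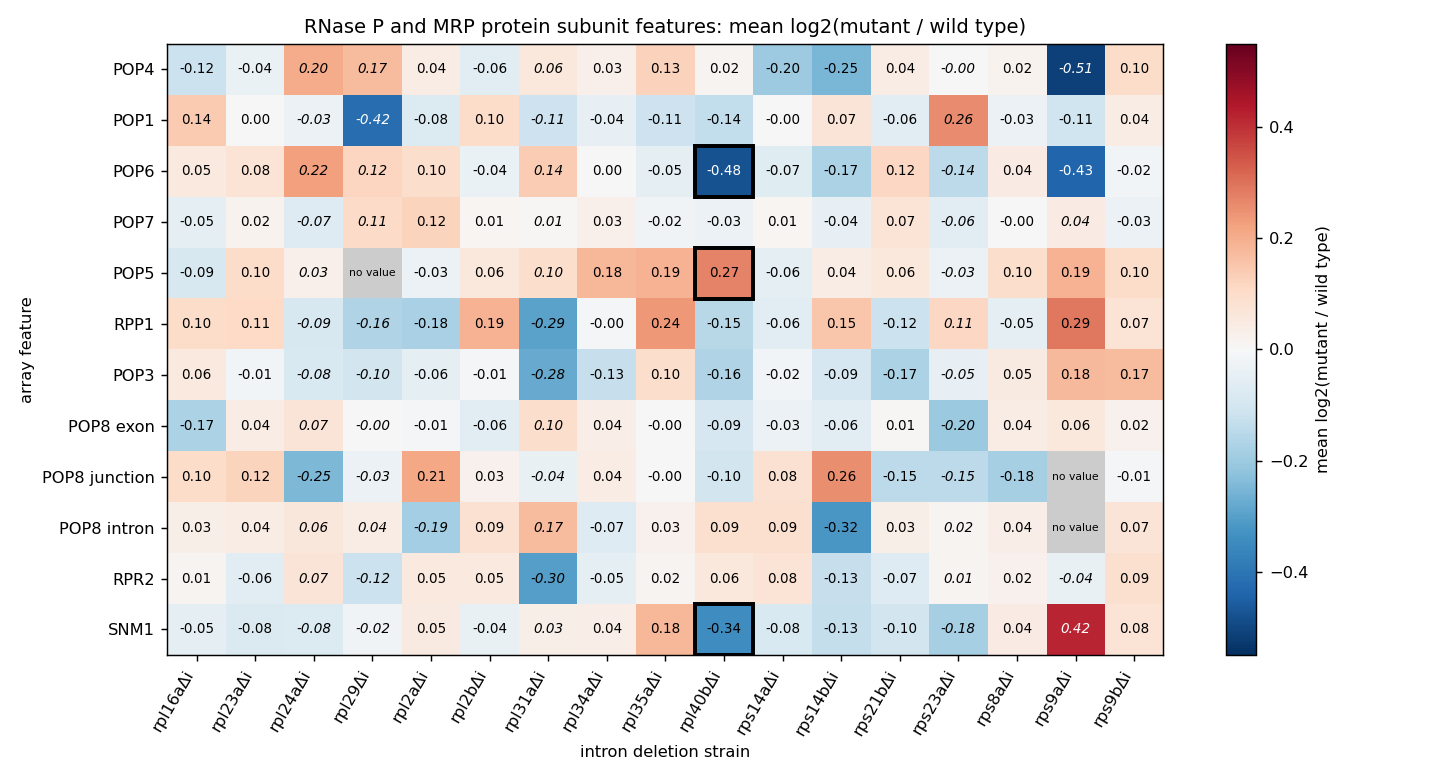
Mean log2(mutant / wild type) of the 12 subunit features (rows) in 17 intron deletion strains (columns), with colour running from -0.55 (blue) to 0.55 (red). Italic values rest on 1 replicate, grey cells had no value, and black frames mark the 3 values past an adjusted p of 0.05, all in the *rpl40bΔi* column.

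In *rpl40bΔi*, the strain without the intron of a gene that encodes ubiquitin fused to ribosomal protein L40, 3 of 12 subunit features passed, or 25%, against 8.58% of all features. No other strain called as many features over the whole array, 83 higher and 42 lower. The median of the 12 features was -0.10, against -0.01 over all features.

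*SNM1*, the RNase MRP protein, was at -0.31, -0.18 and -0.53 in replicates 1, 2 and 3 of *rpl40bΔi*. All 3 values lie below 0, and that of replicate 3 is the lowest *SNM1* value of all replicates. The mean was -0.34 ± 0.18 (SD, n = 3), 1.27-fold below wild type, with limma's standard error 0.08 and adjusted p = 0.00707. Without replicate 3 the mean was -0.25 and limma's adjusted p = 0.171. The Cy3 arrays alone gave -0.23 (limma's adjusted p = 0.239) and the Cy5 arrays alone -0.45 (adjusted p = 0.0304), and replicate 2 was at 0.01 on its Cy5 array.

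*POP6* was at -0.01, -0.66 and -0.77 in the same replicates. The first, on a slide of batch A, is at the wild-type level, and the others, on slides of batch C, are far below it. The mean was -0.48 ± 0.41 (SD, n = 3), 1.40-fold below wild type, with limma's adjusted p = 0.0371. Fitted within batch C alone it was -0.72 with limma's adjusted p = 1.12e-04, while the batch A value has no replicate of its own. Without replicate 1 in the fit of all strains the mean was the same -0.72, with limma's adjusted p = 0.0036. Without replicate 2 the mean was -0.39 (limma's adjusted p = 0.351) and without replicate 3 it was -0.34 (limma's adjusted p = 0.350). The arrays with the mutant in Cy3 alone gave -0.28 and those with it in Cy5 alone -0.69.

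*POP5* was at 0.22, 0.28 and 0.31, the tightest of the 3 called features. The mean was 0.27 ± 0.04 (SD, n = 3), 1.21-fold above wild type, with limma's adjusted p = 0.0295. This rise was larger with the mutant in Cy3, at 0.43, than with it in Cy5, at 0.11. Leaving out any of the replicates of *rpl40bΔi* ended the call, with adjusted p from 0.0651 to 0.183 by limma.

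Partners of the called genes did not pass. *POP7*, which encodes the partner of Pop6, was at -0.03 ± 0.04 (SD, n = 3), and *RPP1*, the partner of Pop5, at -0.15 ± 0.10. *POP4* spanned 0 with 0.32, -0.16 and -0.11. *RPR2* was at 0.06 ± 0.03, *POP1* at -0.14 ± 0.04 and *POP3* at -0.16 ± 0.10. The exon feature of *POP8* was at -0.09 ± 0.05.

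The mating-type markers also differed from wild type in these replicates. In the 3 replicates of *rpl40bΔi*, *MFA2* was at -3.32, -4.65 and -3.76, and *MF(ALPHA)1*, which encodes alpha-factor, at 1.16, 6.59 and 5.13. The a-cell list of 3 genes had 4 of 5 features called lower in this strain, and the alpha-cell list of 5 genes had 3 of 5 called higher. Of all features 8.58% were called there in either direction. The a-cell calls were *MFA1* at -2.49, *MFA2* at -3.91 and features of *HMRA1* at only -0.32 and -0.19. With a term for such replicates in limma's fit, *SNM1* was at -0.27 (adjusted p = 0.305), *POP6* at -0.64 (adjusted p = 0.141) and *POP5* at 0.45 (adjusted p = 0.0196). The part of mating type in these changes was not tested further.

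**Figure D2:**
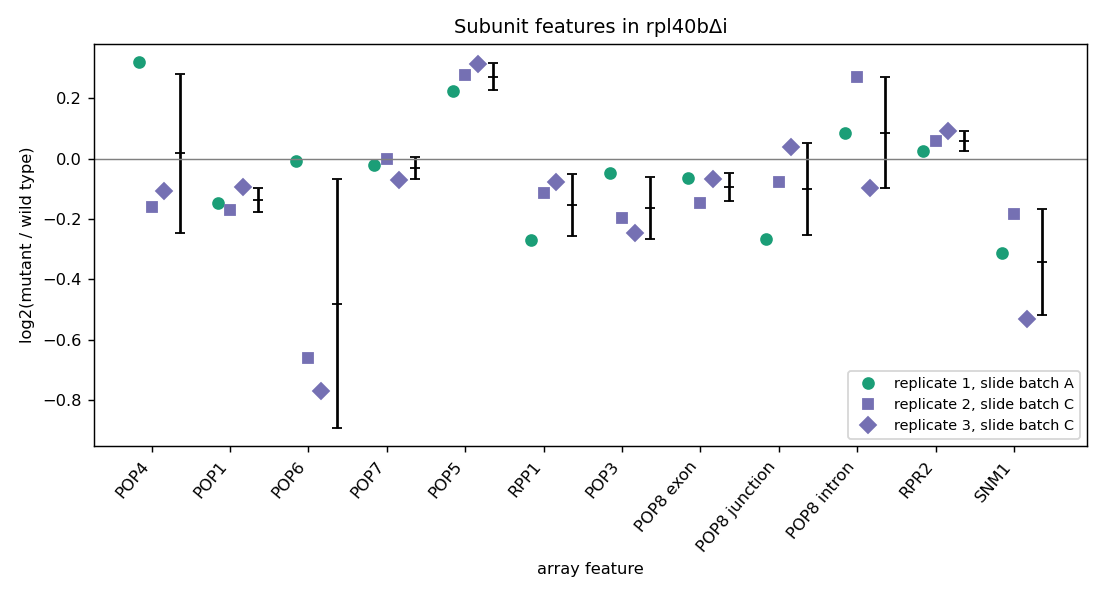
Log2(mutant / wild type) of each subunit feature in the 3 replicates of *rpl40bΔi*, coloured by slide batch, with the mean and SD in black at the right of each group. *SNM1* lies below 0 and *POP5* above 0 in every replicate, while *POP6* is at -0.01 in replicate 1 and at -0.66 and -0.77 in the others.

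Other genes of RNA processing were measured on the same arrays. Of the list of 37 ribosome biogenesis factors, 8 of 655 values passed across the strains, all lower and all in *rpl40bΔi*. This is 1.22%, against 0.986% over all features and strains, and within *rpl40bΔi* 8 of the list's 39 features passed, against 8.58% of all features. They were *SPB1* (a methyltransferase, -0.53 ± 0.08), *NSR1* (-0.48 ± 0.09), *NOP4* (-0.47 ± 0.07), the helicase genes *HAS1* (-0.40 ± 0.38) and *DBP3* (-0.37 ± 0.02), *GAR1* of the H/ACA particles (-0.34 ± 0.15) and a pair of features of *NOG2*, a GTPase gene (-0.41 ± 0.23 and -0.40 ± 0.10), all SD with n = 3. The median of that list in this strain was -0.23. Of 19 exosome and nuclease genes, *RNT1*, the yeast RNase III, was at -0.45 ± 0.02 and *REX4* at -0.41 ± 0.12, also in *rpl40bΔi*, and they were the only calls among 321 values, or 0.623%, against 0.986% over all features and strains. Within *rpl40bΔi* they were 2 of 19 features, against 8.58% of all features. This list had a median of -0.05 there.

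*SPT15*, the TATA-binding protein, was at 0.50 ± 0.58 in *rpl40bΔi* (limma's adjusted p = 0.00485), and *RPC82* was at -0.30 ± 0.24 in *rpl34aΔi* (adjusted p = 0.0364), which makes 1 higher and 1 lower of 230 values from 10 genes of RNA polymerase III transcription, or 0.87%, against 0.986% over all features and strains. From 8 tRNA modification genes 1 of 198 values passed (0.505%), a feature of *TAN1* in *rps14bΔi* at 0.54 ± 0.11 (SD, n = 3). Among the 3 genes of tRNA end processing and splicing 0 of 51 values passed, and for *EST2*, the telomerase reverse transcriptase, 0 of 16. The RNA components *RPR1* and *NME1* were not analysed here.

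*POP4* was lowest in *rps9aΔi*, *rps14bΔi* and *rps14aΔi*. Over the 38 replicates with both arrays it ranged from -0.51 to 0.32 around a median of -0.01. The highest strain means were 0.20 in *rpl24aΔi* and 0.17 in *rpl29Δi*, each from 1 replicate. No pair of neighbours in the order of strain means differed by more than 2 standard errors of the difference, for *POP4* or for any other subunit feature. Neighbours in a sorted order lie close by construction, so this does not show that the strains are alike.

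In *rps9aΔi* the *POP4* value of -0.51 came from 1 replicate, whose arrays disagreed. Its Cy3 array gave 0.43 over 5 spots, and its Cy5 array -1.46 over 2 spots. The other replicate had no *POP4* value in Cy3 and -0.37 in Cy5. The mean did not pass limma's test. After each array was scaled to the same spread it passed at -0.47, again from that 1 replicate. Over the Cy5 arrays alone it passed at -0.91 (limma's adjusted p = 0.00121). On Cy5 arrays *POP4* was below 0 over all strains too, at -0.27 (limma's adjusted p = 1.38e-05). Within Cy5 arrays, *rps9aΔi* minus *rps9bΔi* was also -0.91 (limma's adjusted p = 0.0265). These Cy5 results rest on the 2-spot value of -1.46 and on -0.37 in *rps9aΔi*. The part of the dye in them was not tested.

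*POP4* was at -0.42, -0.10 and -0.24 in *rps14bΔi*, with a mean of -0.25 ± 0.16 (SD, n = 3, limma's adjusted p = 0.241). In *rps14aΔi* it was at -0.48, -0.08 and -0.04, with a mean of -0.20 ± 0.24 (SD, n = 3, limma's adjusted p = 0.503). All 6 values lie below 0, and the lowest of each strain is the replicate on slides of batch D.

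*POP6* was second lowest in *rps9aΔi*, with -0.68 and -0.19, and a mean of -0.43 ± 0.34 (SD, n = 2, limma's adjusted p = 0.513). It was at -0.46, 0.03 and -0.09 in *rps14bΔi*. In *rps14aΔi* it was at -0.53, 0.20 and 0.13, again with the batch D replicate lowest. Batch D thus holds the lowest *POP4* and *POP6* values of both *RPS14* strains, and with 1 replicate of each strain it cannot be told apart from those replicates. Over all 39 replicates *POP6* ranged from -0.77 to 0.31 with a median of -0.04. Its SD of 0.27 was wider than that of 90.3% of all features, against a median SD of 0.16 over all features and 0.19 for *POP4*.

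**Figure D3:**
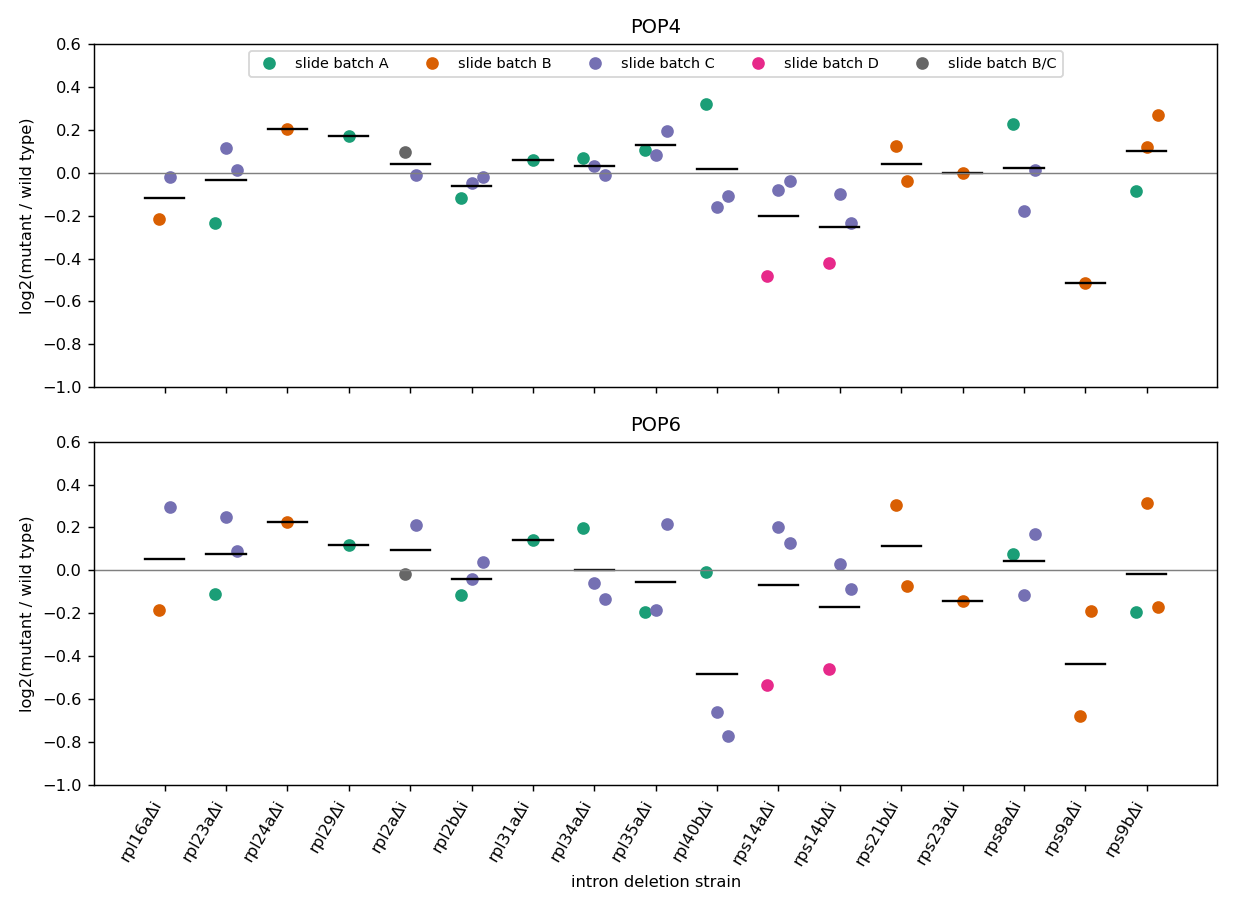
Log2(mutant / wild type) of *POP4* (top) and *POP6* (bottom) in every replicate with both arrays, by strain, coloured by slide batch, with a bar at each strain mean. The batch D replicates of *rps14aΔi* and *rps14bΔi* are below -0.4 for both genes, and *rpl40bΔi* is low for *POP6* in the batch C replicates only.

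*POP4* and *POP6* had correlated values over replicates. Pearson's r was 0.63 and Spearman's rho 0.55 over 38 replicates, the highest r of the 66 pairs of subunit features. For comparison, r over all pairs of 829 complete features had a median of 0.00 and a 95th percentile of 0.48. These replicates share strains and slide batches, so the coefficient is a description. Within slide batches r was 0.46 in A (9 replicates), 0.78 in B (8) and 0.47 in C (18). Without the replicates of *rps9aΔi* and batch D it fell to 0.41 over 35 replicates, without the 2 replicates farthest from the median of *POP4* to 0.49, and without *rpl40bΔi* it was 0.71.

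The correlation differed between sets of arrays. On Cy3 arrays of the mutant r was 0.55 (38 replicates), and on Cy5 arrays 0.56 (39). Taken across orientations, *POP4* in Cy3 against *POP6* in Cy5 gave -0.03, and *POP4* in Cy5 against *POP6* in Cy3 gave 0.39. Within a replicate, *POP4* minus *POP6* ranged from -0.31 to 0.66 with a median of -0.01. The genes lay on the same side of 0 in 26 of 38 replicates, 15 with both below and 11 with both above.

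**Figure D4:**
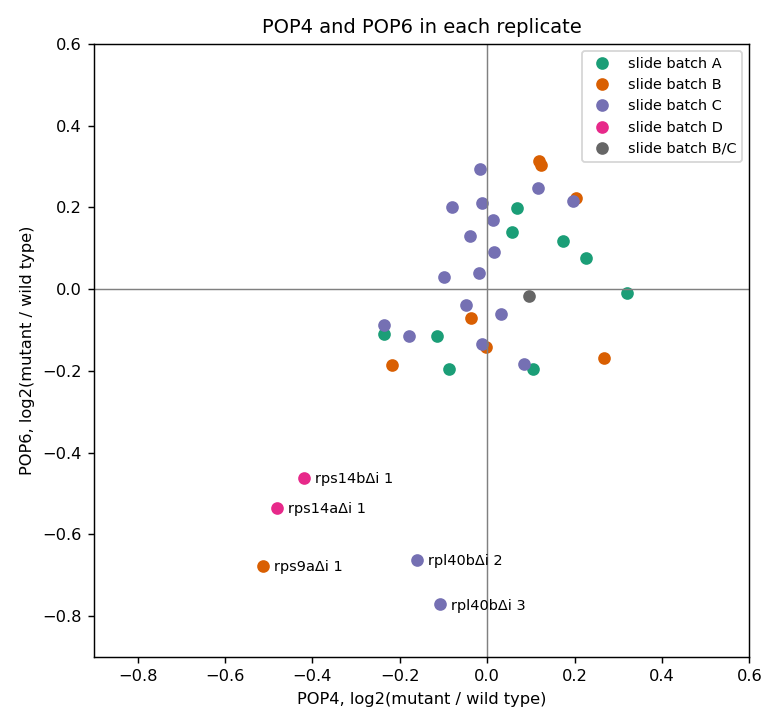
*POP6* (vertical) against *POP4* (horizontal) log2(mutant / wild type) in the 38 replicates with both values, coloured by slide batch. The replicates low in both genes are *rps9aΔi* 1 and the batch D replicates of *rps14aΔi* and *rps14bΔi*, and *rpl40bΔi* 2 and 3 are low in *POP6* with *POP4* nearer 0.

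The features most like *POP4* over the replicates, among 868 features with a value in those replicates and by r alone, were those of *ARF2* (0.77), *ERD2* (0.77), *GTR1* (0.73), *HSH49* (0.71) and *DTD1* (0.71), and the most opposite were *DBF4* (-0.78), *YOS1* (-0.68) and *RPS11A* (-0.67). Within batches A, B and C r with *ARF2* was 0.80, 0.84 and 0.18, and with *DBF4* -0.89, -0.85 and -0.16. For *POP6*, among 828 features, the highest were *ARF2* (0.60), a feature of *RPL40B* (0.58), *YOP1* (0.58), *GTR1* (0.57) and *NOG2* (0.57), and the lowest *RPL12A* (-0.72), another feature of *RPL40B* (-0.70) and *RPS26B* (-0.67). *RPL40B* is the gene altered in *rpl40bΔi*. Within batches A, B and C r with its first feature was 0.00, 0.44 and 0.81, and with its second 0.07, -0.50 and -0.83, where A holds 1 replicate of that strain, B none and C the other 2.

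*RPP1* had the closest likeness of any subunit feature. Over 39 replicates r was 0.85 with *HAS1*, a helicase gene of ribosome assembly, 0.83 and 0.80 with features of *IMD4* of guanine nucleotide synthesis, 0.83 with the helicase gene *DBP2* and 0.80 with *NRD1* of transcription termination. Within slide batches A, B and C r with *HAS1* was 0.85, 0.88 and 0.90. The most opposite features were those of the ribosomal protein genes *RPL33B* (-0.73), *RPL37A* (-0.72) and *RPL6A* (-0.70), with r from -0.95 to -0.58 within the batches. As above, replicates share strains and slide batches, and no significance attaches to these coefficients.

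*SNM1* was most like *SPB1* (0.57), *CGR1* (0.55), the exosome gene *RRP46* (0.54), *RPS7B* (0.54) and *RPL35B* (0.52), and least like *YRA1* (-0.56), *GCN4* (-0.51) and *TUB3* (-0.51). *POP5* was most like a pair of features of the prefoldin gene *GIM5* (0.68 and 0.65), *PAF1* (0.66), *NOP10* (0.62) and *KIN28* (0.58), and least like *PIP2* (-0.62), *YAK1* (-0.59) and *BNA7* (-0.59). *POP1* stood nearest to *SKI2* (0.74), *YAK1* (0.72), *WHI4* (0.68), *ACT1* (0.68) and *SAC6* (0.68), and farthest from *RPS17B* (-0.68), *RPL42B* (-0.66) and *TAN1* (-0.66). Thus *YAK1*, a kinase gene, lies at opposite ends for *POP1* and *POP5*, whose own r was -0.48.

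The exon feature of *POP8* was nearest to *LSM2* (0.71), *LSM7* (0.70), *CGR1* (0.70), *RPS18B* (0.65) and *RPS10A* (0.65), and farthest from *SPT8* (-0.69), *REB1* (-0.68) and *SEC27* (-0.63). *POP7* was nearest to *RPS30B* (0.58), *MUD2* (0.58), *DID4* (0.56), *SPL2* (0.55) and *NOG2* (0.53), and farthest from *SEC27* (-0.66), *SSD1* (-0.62) and *LSB3* (-0.62). For *POP3* the highest were *CTK1* (0.59), *PRP28* (0.57), *GAR1* (0.54), *TEF4* (0.53) and *NRD1* (0.53), and the lowest *PRE3*, *RPL21B* and *YDC1* (each -0.51). The highest for *RPR2* were *GAT1* (0.68), *AAR2* (0.63), *MPE1* (0.60), *NGG1* (0.59) and *SGS1* (0.57), and the lowest a pair of features of *RPL42A* (-0.60 and -0.59) and *RPS27B* (-0.55). Within batches A, B and C r of *RPR2* with *GAT1* was 0.33, -0.16 and 0.25, and with *NGG1* 0.62, 0.81 and 0.20.

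Among the other shared subunits, *POP5* was mostly above wild type. It was above 0 in 28 of 38 replicates, from -0.17 to 0.39, and in 12 of 16 strain means. Its mean over strains was 0.08 (standard error 0.02, limma's adjusted p = 0.0461), the 1 call among the 12 features, where 10.3% of all features passed. That mean differed by dye, at 0.23 over the arrays that had the mutant in Cy3 and -0.08 over the Cy5 arrays. After *rpl40bΔi* its highest means were 0.19 ± 0.10 in *rpl35aΔi* (n = 3) and 0.19 ± 0.11 in *rps9aΔi* (n = 2).

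*RPP1* ranged from -0.29 to 0.52 over 39 replicates. It was above 0 in all 3 replicates of *rpl2bΔi*, at 0.23, 0.13 and 0.21, and below 0 in both of *rpl2aΔi*, at -0.22 and -0.14. The difference, *rpl2aΔi* minus *rpl2bΔi*, was -0.37 (standard error 0.14, limma's adjusted p = 0.280). In *rpl35aΔi* it was at -0.07, 0.27 and 0.52, and in *rps9aΔi* at 0.23 and 0.35, and neither mean passed.

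*POP1*, the largest protein of both enzymes, ranged from -0.42 to 0.31 over 39 replicates. Its extreme strain means, -0.42 in *rpl29Δi* and 0.26 in *rps23aΔi*, rest on 1 replicate each. *POP3* ranged from -0.37 to 0.43, with its lowest strain mean in *rpl31aΔi* (-0.28, 1 replicate) and its highest in *rps9aΔi* (0.18 ± 0.24, SD, n = 2). *POP7* varied least of the subunits, from -0.27 to 0.19 with an SD of 0.09, below that of all but 2.34% of features.

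*RPR2*, the RNase P protein gene, ranged from -0.57 to 0.20 over 38 replicates, with strain means from -0.30 in *rpl31aΔi* (1 replicate) to 0.09 in *rps9bΔi*. *SNM1* ranged from -0.53 to 0.45, and its strain means from -0.34 in *rpl40bΔi* to 0.42 in *rps9aΔi*, the latter from 1 replicate of 0.30 in Cy3 and 0.54 in Cy5 (limma's adjusted p = 0.287). In *rpl35aΔi* *SNM1* was at 0.05, 0.05 and 0.45, so that replicate 3 set the mean of 0.18.

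The exon feature of *POP8* was among the steadiest, from -0.30 to 0.14 with an SD of 0.10. Its intron and junction features lacked 36.8% and 48.3% of their spots, against 2.56% to 14.7% for the other subunit features, and gave no value in *rps9aΔi*. Intron minus exon in *rps14bΔi* was -1.11, 0.10 and 0.24, of which the first rests on an intron value of 0.35 over 3 spots on its Cy3 array and of -2.42 in 1 spot on its Cy5 array. Its junction feature in *rps14bΔi* was at 0.64, 0.10 and 0.03. In the other strains the mean of intron minus exon lay between -0.19 in *rpl2aΔi* and 0.22 in *rps23aΔi*, each from 1 replicate.

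Values of several subunits differed by dye orientation. *POP4* averaged 0.25 over arrays that had the mutant in Cy3 and -0.30 over the Cy5 arrays, and the Cy5 array was the lower in 32 of 38 replicates. *POP6* averaged 0.13 and -0.23, with Cy5 lower in 35 of 39, and *POP5* 0.25 and -0.07, with Cy5 lower in 35 of 38. *RPP1* and *RPR2* went the other way, at -0.11 and -0.17 in Cy3 and 0.18 and 0.16 in Cy5. For *SNM1* the means were -0.02 and -0.03, and for *POP7* -0.01 and 0.02. Averaging both arrays removes such a shift only where both have a value.

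**Figure D5:**
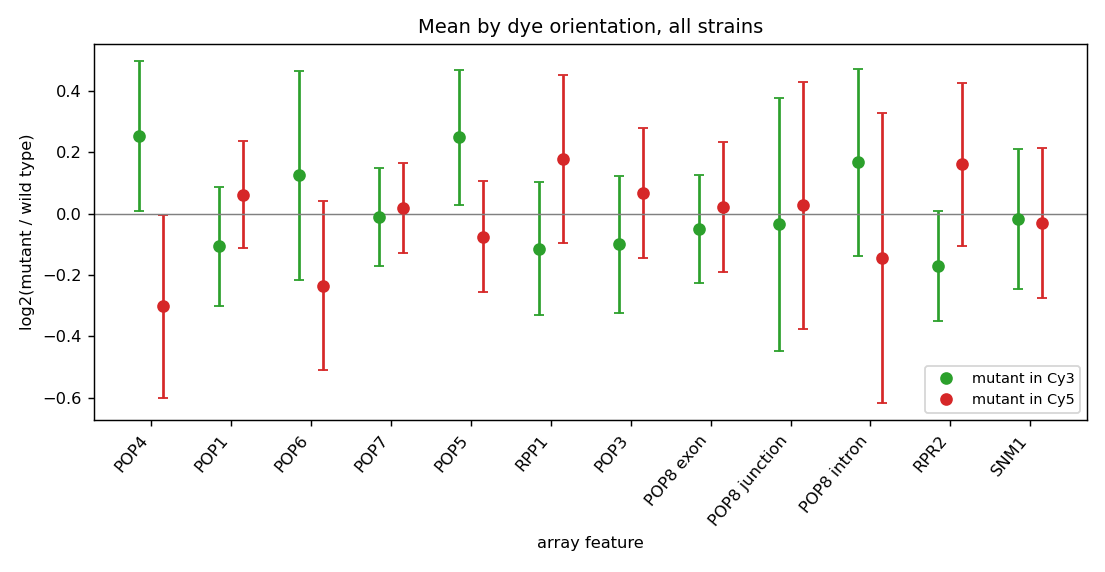
Mean log2(mutant / wild type) of each subunit feature over all arrays with the mutant in Cy3 (green) or Cy5 (red), with the SD over arrays as bars. *POP4*, *POP5* and *POP6* are higher in Cy3, and *RPP1* and *RPR2* are higher in Cy5.

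Between strains, 0 of the 12 features passed limma's test for unequal means (lowest adjusted p = 0.185, for *SNM1*), where 3.09% of all features did, and 2 had an unadjusted p under 0.05, *SNM1* and *RPP1*. Large-subunit against small-subunit strains gave 0 calls among the 12, where 0.412% of all features passed, with 2 at an unadjusted p under 0.05, *POP4* and *POP1*. The mean of *POP4* was 0.04 over the 10 large-subunit strains and -0.12 over the 7 small-subunit strains, a difference of 0.16 (standard error 0.06, limma's adjusted p = 0.475). *POP6* had 0.01 and -0.10.

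The paralog pairs of strains were *rpl2aΔi* and *rpl2bΔi*, *rps9aΔi* and *rps9bΔi*, and *rps14aΔi* and *rps14bΔi*. Here 0 of 34 differences passed, where 0.458% of all differences did, and 3 had an unadjusted p under 0.05. *POP4* was at -0.51 in *rps9aΔi* and at 0.10 ± 0.18 (SD, n = 3) in *rps9bΔi*, with -0.09, 0.12 and 0.27. The difference of -0.61 (standard error 0.19, limma's adjusted p = 0.219) rests on the replicate of *rps9aΔi* whose arrays disagreed. Over Cy5 arrays alone it was -0.91 and passed (limma's adjusted p = 0.0265), with that replicate at -1.46 over 2 spots. For *SNM1* in that pair the difference was 0.35 (limma's adjusted p = 0.870).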

How the data were processed

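The deposited values are log2(mutant / wild type) for every spot. The authors normalized them with the Bioconductor packages marray and limma, following the Goulphar program, and had already turned the sign to mutant over wild type. Background correction and spot filters: not given in the sources used here. Intensities were not used. The array number, not a read depth, limits the precision.

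Spots were assigned by the array's annotation (8742 with 1 symbol, 474 with none), the 6 spots of a feature were averaged, and then the Cy3 and Cy5 arrays of each replicate, where both had a value. The fit used limma 3.58.1 (R 4.3.3) on all 1457 features, with 1 mean per strain (22 residual degrees of freedom at most) and variances moderated across features, and p-values were adjusted by Benjamini and Hochberg over the features of each comparison, with 0.05 as threshold. For strains of 1 replicate the spread of the others was taken. The fit was tested on simulated data. Nothing in the labels ties replicates to separate cultures, so p-values measure the spread between these samples, which may be technical. Of the 78 arrays, 0 pairs were identical.

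Subunits are named in full, as are genes of each RNA-processing list with a call, the 5 highest and 3 lowest correlated features of each subunit (left out for the sparse *POP8* intron and junction), and mating-type markers. The subunits and lists were chosen with earlier results of these data known. Alternatives were other centring and scaling, spot medians, each dye, slide batch, replicate block, single arrays, spot minimum of 4, robust moderation, a mating-type term, other references and leaving out replicates. Python 3.11.15, pandas 2.3.3, numpy 2.4.6 and matplotlib 3.10.9 were used for the rest.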

Additional observations from a re-analysis of the deposited data

Results flagged for a closer look

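Values measured on only 1 array of a replicate entered none of the comparisons on replicate means, only the alternatives on single arrays or 1 dye, and 2 of 12 such subunit values lie outside the other arrays of the same dye. The *POP8* junction feature in *rps9aΔi* replicate 2, with the mutant in Cy5, was at -1.75 from 1 spot, where the other 37 arrays ranged from -0.80 to 0.65. It passed limma's test over Cy5 arrays alone (adjusted p = 4.4e-05) and with each array as a replicate (adjusted p = 0.00224). The *POP8* intron feature in *rpl2aΔi* replicate 2, in Cy5, was at 0.56 from 1 spot, where the other 38 arrays ranged from -2.42 to 0.51.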

How the results depend on the processing

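The 3 calls against wild type became 5 with arrays scaled to one spread, 4 with Cy3 arrays only (*POP5* in *rpl40bΔi* kept, *POP6* and *SNM1* lost), 6 with Cy5 arrays only, 2 with a minimum of 4 spots (*POP5* lost), 0 in batch B alone, 8 in batch C alone, 1 with the mating-type term, 0 with each strain fitted on its own replicates, 1 against the mean of the other strains, and 0 to 3 leaving out 1 replicate (1 without *rpl40bΔi* replicate 2, 0 without replicate 3). Batch B holds no replicate of *rpl40bΔi*, so none of the 3 calls could recur there. With each array as a replicate the count stayed at 3, but *POP5* in *rpl40bΔi* was lost. The *POP8* junction feature in *rps9aΔi* passed in its place. Batches A and D alone could not be fitted, having 1 replicate per strain. The 1 call over all strains (*POP5*) became 0 with spot medians, the batch block, batch B alone, the replicate block, single arrays, 4 spots or the mating-type term, 8 with Cy3 and 4 with Cy5 arrays only, and 0 to 1 leaving out 1 replicate, where it was kept in 13 of 35 cases. *POP5* over all strains turned to -0.0757 with Cy5 arrays only. The 0 calls between strains became 1 with Cy5 arrays only and 4 in batch C alone, those between subunit classes 1 in batch C alone, and those between paralog strains 2 with Cy5 arrays only, 1 in batch C alone and 1 with single arrays. Leaving out both *rps9aΔi* replicates and the 2 batch D replicates, chosen after seeing the data, left 3 calls against wild type and 0 over all strains. The cause of these changes was not tested. The share of all features called under each alternative is not given here, so these counts cannot be set against the whole array.

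With the replicate block, the count against wild type stayed at 3 and that over all strains was 0. Same-numbered replicates of different strains had a mean r of 0.06 (lowest -0.46), against -0.03 for those of different number. For replicates of different strains in the same slide batch it was 0.10, against -0.04 for other batches. The main fit did not treat the numbers as pairs. Each of the 3 calls in *rpl40bΔi* kept its direction under every alternative run. *POP8* intron and junction values rest on few spots, and single-replicate strains and *rps9aΔi* limit what could be detected.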
